A study of Drosophila melanogaster with 6 samples.

Results

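Oxidative phosphorylation subunits were followed in RNA from the larval proventriculus, the valve-like organ between foregut and midgut of Drosophila melanogaster. They were chosen by gene symbol in the array annotation, which had to carry the prefix of NADH dehydrogenase (ND), cytochrome c oxidase (COX), ubiquinol-cytochrome c reductase (UQCR, with RFeSP and Cyt-c1), ATP synthase (ATPsyn) or succinate dehydrogenase (Sdh). This gave 71 genes of the 11982 named on the array, each read by its probe set of highest mean over the 6 arrays. Of these, 27 were complex I genes, 3 complex II, 6 complex III, 7 complex IV and 10 complex V. The remaining 18 were paralogs, duplicated genes whose symbol ends in L or in L and a digit. ND-MNLL, a complex I subunit whose symbol also ends in L, was kept in complex I. A gene table of the species holds 95 symbols that match the rule, and the other 24 are not analysed here. They include 9 genes of mitochondrial DNA, so all members are nuclear genes, and the subunits SdhA, UQCR-C1, UQCR-C2 and COX6B.

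Oxidative phosphorylation takes place in the inner mitochondrial membrane. Complexes I and II pass electrons from NADH and succinate to ubiquinone, complex III passes them on to cytochrome c, and complex IV hands them to oxygen. Complexes I, III and IV pump protons, and complex V, the ATP synthase, makes ATP from the returning protons. Complex II is also an enzyme of the citric acid cycle. Many of the duplicated fly genes are known for expression in the testis, while the genes they resemble are read in most tissues.

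All larvae were at instar 3 and carried hairy-gal4, a Gal4 driver named for the hairy gene, with a UAS-neoGFP transgene that answers to it. The groups were unchallenged larvae (2 arrays), larvae challenged with G418 (2 arrays), an aminoglycoside that blocks protein synthesis, and F3 larvae, all unchallenged, without (1 array) or with past exposure in the F1 generation (1 array). The F3 labels do not name the agent of that exposure. Nothing in the labels says whether replicate arrays came from separate dissections, or how many larvae were pooled, so a p-value speaks only to array-to-array spread and part or all of that could be technical. Values are log2 RMA signals of Affymetrix Drosophila 2.0 arrays. They are listed with replicates 1 and 2 of the unchallenged and G418 groups in that order, and with the F3 array without past exposure before the one with it.

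The regulators of proventriculus and foregut differed in signal. The brightest were hry, dve and drm, with dve between 10.30 and 11.58 and drm between 9.76 and 11.28. Poxn stayed between 3.31 and 3.83, while D reached 7.55 on the second unchallenged array but only 3.66 to 4.44 elsewhere, and had the widest G418 change of the list, -1.72 ± 1.24 (SE). Of 10 such markers 9 had a negative log2 change with G418, with a median of -0.44 and 0 called by limma. The part of this difference in the subunits' values was not tested. Markers of other tissues moved between arrays. All 12 salivary gland markers were highest on G418 replicate 1, where their summed signal was 16.91 on the log2 scale against 10.85 to 15.9 on the other arrays. Nervous tissue markers summed to 11.13 on unchallenged replicate 2 and to 7.93 to 8.19 elsewhere. Of these 11 markers 8 were highest on that array, and nSyb, VGlut and para were not. Fat body markers summed to 10.08 and 13.63 on the F3 arrays and to at least 14.61 on each of the other 4. The gap between the 3' and 5' control probe sets, which widens as RNA degrades, was largest on unchallenged replicate 1 for actin (0.88, against -0.05 to 0.51), for GAPDH (1.78, against 1.28 to 1.61) and for eIF-4A (1.98, against 1.25 to 1.56). In bulk RNA, fewer cells of a type and less RNA per cell cannot be told apart.

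Subunit genes of all 5 complexes gave strong signals. A set of 50 of the 53 subunits lay between 8.43 for UQCR-Q and 12.93 for ND-MLRQ as a mean over the 6 arrays. Within that range the probe sets of complex II lay between 9.91 and 10.52, those of complex IV between 11.35 and 12.11 and those of complex V between 10.94 and 12.61. All 7 complex IV and all 10 complex V probe sets stood at or above the 95.8th percentile of all probe sets. Signals of different probe sets depend on their probes, so they do not rank genes by RNA amount. The median of all probe sets was 4.98.

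A further 3 subunits had dim probe sets. ND-B8, an accessory subunit of complex I, was at 3.44 and 3.01 unchallenged, 3.36 and 3.06 with G418, and 3.06 and 3.25 in F3. ND-B12, another accessory subunit, was at 5.73 and 5.55 unchallenged, 5.93 and 5.74 with G418, and 5.71 and 5.81 in F3. UQCR-11, the counterpart of the human hinge protein of complex III, was at 3.78 and 3.82 unchallenged, 3.65 and 3.68 with G418, and 3.84 and 3.88 in F3. These stood apart from the other subunits by a gap between 5.75 and 8.43. A dim probe set need not mean a dim gene. COX7B had 3 probe sets with means of 3.32, 11.81 and 12.11, and COX7C had 2 with means of 3.71 and 11.92.

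**Figure D1:**
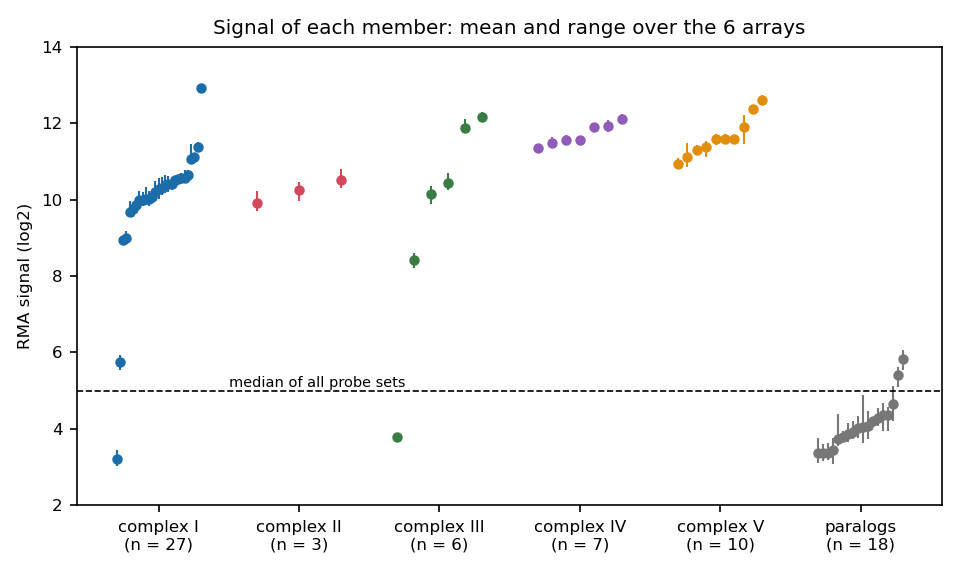
Mean log2 RMA signal of each of the 71 members (points) with its range over the 6 arrays (lines), by complex, with paralogs apart. The dashed line marks 4.98, the median of all probe sets; 50 subunits lie at or above 8.43, 3 subunits and the 18 paralogs at or below 5.81.

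The signals of the subunits varied little from array to array. The 50 bright subunits had a median range over the 6 arrays of 0.31 on the log2 scale. It was 0.57 for all 3186 genes with a mean at or above that of the dimmest of them, UQCR-Q. These 3186, called genes as bright here, include the 50 subunits and are not matched to them in signal. Their median mean was 9.63, against 10.57 for the 50. No subunit ranged over more than 0.77, the value of ATPsynbeta, and ND-B16.6, at 10.49 and 10.51 unchallenged, 10.50 and 10.52 with G418, and 10.51 and 10.52 in F3, ranged over 0.03. The median pooled SD between replicates was 0.13 for the bright subunits and 0.19 for genes as bright.

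The first comparison asked which subunit RNAs a G418 challenge moves. No member passed the test: limma called 0 of 71 at an adjusted p under 0.05, beside 0 of 18769 probe sets (0%). At an unadjusted p under 0.05 it gave 0 members, against 664 probe sets (3.54% of all), and with a trended, robust variance prior it again gave 0 members at either level. Of the 71 members, 50 had a positive and 21 a negative log2 change, with a median of 0.07, against -0.02 for all genes and -0.09 for genes at least as bright as the dimmest bright subunit. Both G418 arrays lay above both unchallenged arrays for 21 members, where 18.3% of all genes did so. They lay below for 3 members (ND-15, ND-B17.2 and UQCR-11), where 20.1% of all genes did so. Leaving out unchallenged replicate 1 gave 251 calls over all probe sets and 0 among members. An exact permutation test of 2 against 2 arrays cannot give a two-sided p under 0.333.

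The intervals give the range of change that the array-to-array spread allows, and like the p-values they speak only to that spread. For all 53 subunits the 95% interval of the log2 change, from limma, lay inside -1 to 1, so a change of 2-fold was outside the interval of each, taken singly. This held for 70.8% of all genes. The lowest bound was -0.85, for ATPsynC, and the highest 0.92, for ATPsynbeta. No member differed 2-fold between the groups, where 5.18% of all genes did. Among paralogs 15 of 18 had an interval inside these limits, and COX4L, ATPsynbetaL and UQCR-11L did not.

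**Figure D2:**
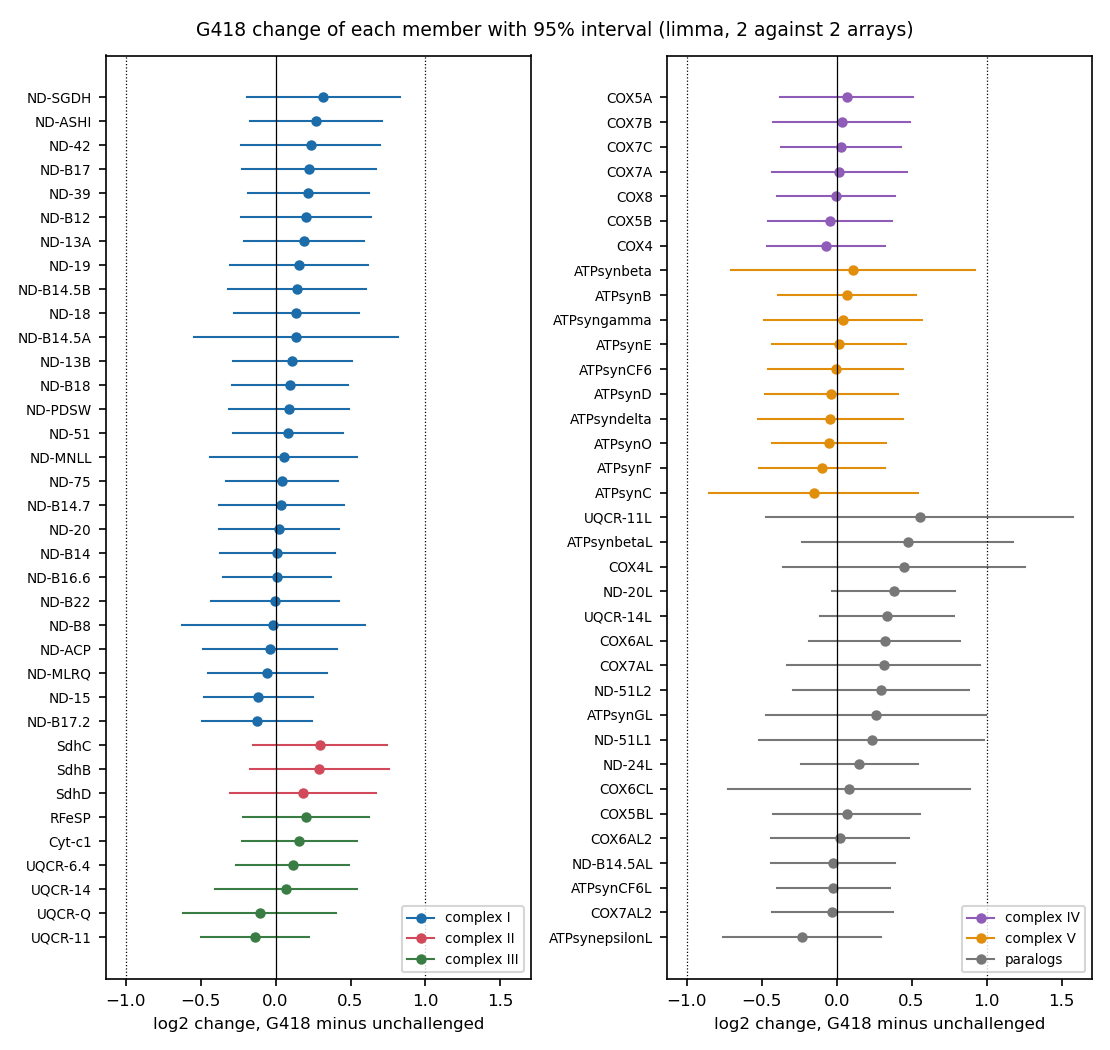
Log2 change with G418 (points) and 95% interval from limma (lines, 2 against 2 arrays) for the 71 members, by complex and for paralogs. Dotted lines mark a 2-fold change; all 53 subunit intervals lie within them and hold 0, and 3 paralog intervals reach past the upper line.

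Complex II had the highest median log2 change of the 5 complexes, 0.29 over its 3 members. SdhC, a membrane anchor, was at 10.30 and 10.45 unchallenged, 10.80 and 10.56 with G418, and 10.48 and 10.51 in F3. SdhB, the iron-sulfur subunit, was at 9.96 and 10.21 unchallenged, 10.47 and 10.29 with G418, and 10.30 and 10.29 in F3. For both genes both G418 arrays lay above both unchallenged arrays, as for 18.3% of all genes, with log2 changes of 0.30 ± 0.16 (SE) and 0.29 ± 0.17 (SE). Limma's adjusted p was 0.788 for each. SdhD, the other membrane anchor, was at 9.83 and 9.92 unchallenged, 10.22 and 9.89 with G418, and 9.71 and 9.87 in F3, where G418 replicate 2 lay below unchallenged replicate 2, and its change was 0.18 ± 0.18 (SE). All 3 genes were highest on G418 replicate 1. Without that array the median was 0.18, and without unchallenged replicate 1 it was 0.17.

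In complex I, 21 of 27 members had a positive change and the median was 0.09. Without G418 replicate 1 that median was 0.0087, and without G418 replicate 2 it was 0.18. ND-SGDH, an accessory subunit of the membrane arm, was at 10.93 and 10.95 unchallenged, 11.45 and 11.06 with G418, and 10.95 and 11.12 in F3. ND-ASHI, also of the membrane arm, was at 10.02 and 10.13 unchallenged, 10.48 and 10.23 with G418, and 10.17 and 10.20 in F3. ND-39, an accessory subunit of the peripheral arm, was at 9.89 and 9.97 unchallenged, 10.24 and 10.06 with G418, and 9.86 and 9.90 in F3. For these 3 genes, picked for the smallest p of the complex on the same arrays, both G418 arrays lay above both unchallenged arrays. Over the 27 members this was so for 10, and 2 lay below. Of all genes 18.3% lay above and 20.1% below. Their log2 changes were 0.32 ± 0.19 (SE), 0.27 ± 0.16 (SE) and 0.22 ± 0.15 (SE), with an adjusted p of 0.788 each in limma.

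The other 24 complex I members had changes from -0.12 for ND-B17.2 to 0.23 for ND-42, 18 of them positive. For 7 of these 24, among them ND-42, ND-B17 and ND-13A, both G418 arrays lay above both unchallenged arrays, as for 18.3% of all genes and for 461 of the 3186 genes as bright. The measured core subunits, which carry the cofactors for electron transfer, lay below the complex's median: ND-75 at 0.04 ± 0.14 (SE), ND-51 at 0.08 ± 0.13 (SE) and ND-20 at 0.02 ± 0.15 (SE). ND-ACP, the mitochondrial acyl carrier protein, was at -0.04. ND-MLRQ, whose human counterpart is now counted as a part of complex IV, was at -0.05.

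Complex III held changes of both signs. RFeSP, the Rieske iron-sulfur protein, was at 10.35 and 10.44 unchallenged, 10.70 and 10.49 with G418, and 10.26 and 10.35 in F3. Cyt-c1, the haem protein that hands electrons to cytochrome c, was at 10.10 and 10.20 unchallenged, 10.36 and 10.25 with G418, and 9.88 and 10.15 in F3. For both the G418 arrays lay above the unchallenged ones, with changes of 0.20 ± 0.15 (SE) and 0.16 ± 0.14 (SE) and adjusted p of 0.788 and 0.794 in limma. UQCR-11, at -0.13 ± 0.13 (SE), was lower on each G418 array than on either unchallenged array, on a dim probe set. UQCR-6.4, a small subunit, also had both G418 arrays above both unchallenged ones, at 12.16 and 12.07 unchallenged, 12.27 and 12.18 with G418, and 12.07 and 12.29 in F3. That made 3 of 6, where 18.3% of all genes did so. The changes of UQCR-6.4, UQCR-14 and UQCR-Q were 0.11, 0.07 and -0.11. The complex's median was 0.09, and -0.01 without G418 replicate 1.

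Complex IV had the changes nearest to 0 in size. Its 7 subunits had log2 changes from -0.07 to 0.07. For every one the G418 and unchallenged arrays overlapped, as for 7384 of all 11982 genes and 1915 of the 3186 genes as bright. COX4, the subunit that binds regulatory nucleotides in mammals, was at 11.60 and 11.58 unchallenged, 11.60 and 11.43 with G418, and 11.54 and 11.59 in F3. COX5A was at 11.44 and 11.63 unchallenged, 11.70 and 11.50 with G418, and 11.47 and 11.58 in F3. COX5B, which binds zinc, was at 11.38 and 11.41 unchallenged, 11.46 and 11.24 with G418, and 11.25 and 11.34 in F3. These had the smallest p of the complex, with changes of -0.07 ± 0.14 (SE), 0.07 ± 0.16 (SE) and -0.05 ± 0.15 (SE), and the lowest adjusted p was 0.898 in limma. COX7A, COX7B, COX7C and COX8 lay between -0.0046 and 0.03. All 7 genes were highest on G418 replicate 1, and all 7 were lower on G418 replicate 2 than on replicate 1, with a median difference of -0.20.

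ATP synthase genes differed from array to array in another order. ATPsynF, a subunit of the membrane part, was at 12.56 and 12.74 unchallenged, 12.63 and 12.47 with G418, and 12.53 and 12.72 in F3. ATPsynC, the subunit of the rotating ring, was at 10.85 and 11.48 unchallenged, 10.98 and 11.05 with G418, and 11.06 and 11.24 in F3. ATPsynB, of the peripheral stalk, was at 11.44 and 11.70 unchallenged, 11.72 and 11.56 with G418, and 11.53 and 11.56 in F3. For all 10 the groups overlapped, as for 7384 of all 11982 genes and 1915 of the 3186 genes as bright. These 3, of the smallest p, had changes of -0.10 ± 0.15 (SE), -0.15 ± 0.26 (SE) and 0.07 ± 0.17 (SE). The other 7 lay between -0.05 and 0.11, and the median was -0.02.

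All 10 ATP synthase subunits of the symbol rule were higher on the second than on the first unchallenged array, with a median difference of 0.25. Among the 40 bright subunits of complexes I to IV 22 were, with a median of 0.02, and among genes as bright 56.5% were. The ATP synthase subunits blw and sun, outside the symbol rule, were lower on the second array. They were at 11.65 and 11.60 and, on a dim probe set, at 5.02 and 4.90. ATPsynbeta, the catalytic subunit, showed the largest difference, at 11.45 and 12.23 unchallenged, 11.94 and 11.96 with G418, and 11.90 and 11.98 in F3. ATPsyngamma, the central stalk, was at 11.13 and 11.54 unchallenged, 11.34 and 11.41 with G418, and 11.32 and 11.49 in F3. The second probe set of each gave a smaller difference between the unchallenged arrays, 0.27 in place of 0.77 for ATPsynbeta and 0.04 in place of 0.41 for ATPsyngamma. The second probe sets also put the G418 change at -0.15 for ATPsynbeta and -0.09 for ATPsyngamma, of opposite sign to 0.11 and 0.04. The 2 same-numbered pairs went opposite ways: all 10 genes were higher on G418 replicate 1 than on unchallenged replicate 1 (median 0.20), and all 10 were lower on G418 replicate 2 than on unchallenged replicate 2 (median -0.22). For blw each pair went the other way, from 11.65 unchallenged to 11.61 with G418 in replicate 1 and from 11.60 to 11.68 in replicate 2. For sun both pairs were lower with G418. The median G418 change of the 10 was 0.10 without unchallenged replicate 2 and -0.16 without unchallenged replicate 1. Unchallenged replicate 1 had the widest gap between 3' and 5' control probe sets and unchallenged replicate 2 the highest summed signal of nervous tissue markers. The part of either in the difference was not tested.

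Complexes I to IV were instead high on G418 replicate 1. Of their 40 bright subunits 32 had their highest value on that array, where 12.7% of genes as bright did. On G418 replicate 2, 39 of the 40 were lower than on replicate 1, against 26.9% of genes as bright. ATP synthase had its highest value on G418 replicate 1 for 2 of 10 genes, and on unchallenged replicate 2 for 8. Over all 50 bright subunits the median difference between the G418 replicates was -0.18, larger in size than their median G418 change of 0.05. Without G418 replicate 1 the median change of all members turned from 0.07 to -0.01, and without G418 replicate 2 it was 0.17. With each array centred on its median, the bright subunits highest on G418 replicate 1 were 22 of 50 in place of 34. Salivary gland markers were highest on the same array, and their part was not tested.

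**Figure D3:**
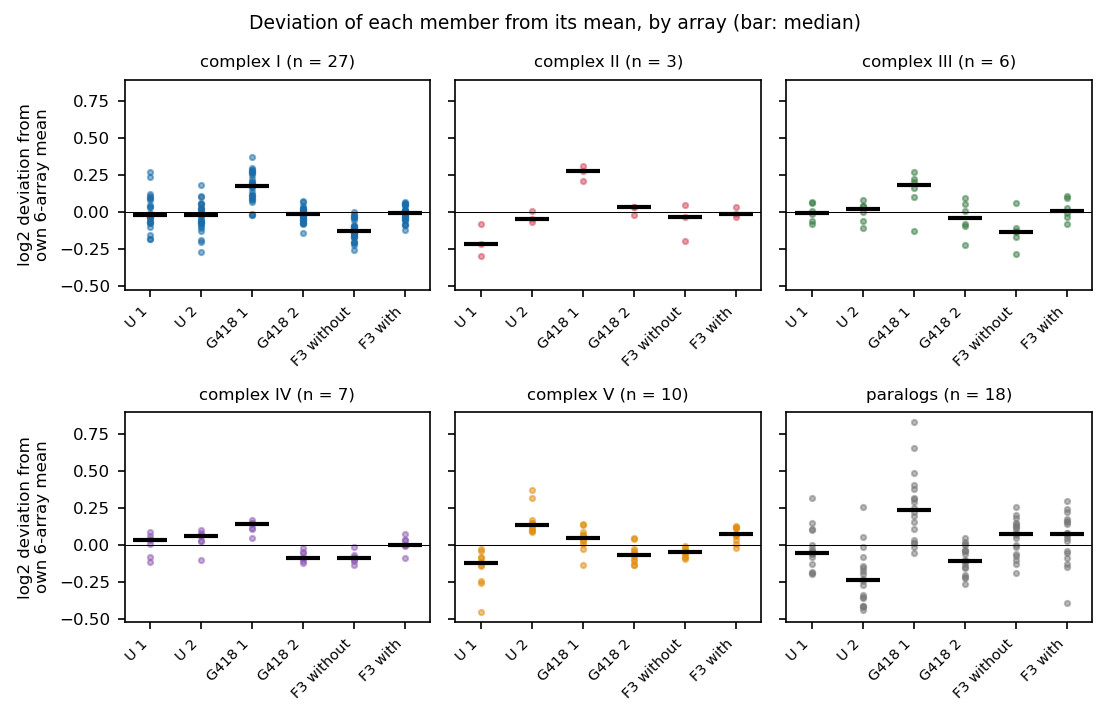
Log2 deviation of each member from its own mean over the 6 arrays (points) and the median of the group (bars); U stands for unchallenged, and F3 without and with for past exposure. Complexes I to IV have their highest median on G418 replicate 1 (0.14 to 0.28), complex V on unchallenged replicate 2 (0.14).

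The 18 paralogs had dim probe sets, with means from 3.35 to 5.81, and 16 of them lay below the median of all probe sets. The 2 above it were ND-20L and ATPsynepsilonL. Of the 16 paralogs whose counterpart gene was read, 14 had a counterpart with a mean of at least 9.86. The exceptions were UQCR-11L, whose counterpart UQCR-11 was itself dim, and ATPsynepsilonL, whose counterpart sun was at 5.02 and 4.90 unchallenged, 4.51 and 4.63 with G418, and 4.48 and 4.64 in F3. The succinate dehydrogenase paralogs SdhAL, SdhBL and SdhCL, outside the symbol rule and added after their values were seen, were as dim, with means of 3.69, 3.62 and 3.82.

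Complex I paralogs stood beside strongly read genes. ND-20L was at 5.23 and 5.08 unchallenged, 5.61 and 5.46 with G418, and 5.53 and 5.58 in F3. Its counterpart ND-20, the subunit that holds the last iron-sulfur cluster before ubiquinone, was at 10.48 and 10.61 unchallenged, 10.64 and 10.49 with G418, and 10.50 and 10.56 in F3. The paralog was thus higher on both G418 arrays than on both unchallenged arrays, with a change of 0.38 ± 0.15 (SE), and the counterpart was not. Among the 5282 genes of no more than the brightest paralog's signal 1319 were, against 461 of the 3186 genes as bright as the bright subunits. The contrast thus also goes with signal level and is not particular to this pair. ND-20L had the smallest unadjusted p of all members, 0.0624, and an adjusted p of 0.788 in limma. ND-51L1 was at 4.50 and 3.94 unchallenged, 4.67 and 4.24 with G418, and 4.34 and 4.44 in F3. ND-51L2 was at 4.30 and 3.93 unchallenged, 4.58 and 4.25 with G418, and 4.54 and 4.53 in F3. Their counterpart ND-51, the NADH-binding subunit, was at 9.83 and 9.92 unchallenged, 9.97 and 9.94 with G418, and 9.76 and 9.74 in F3. Neither paralog separated the groups, though both had positive changes. ND-24L, whose counterpart is not analysed here, was at 4.21 and 4.06 unchallenged, 4.32 and 4.25 with G418, and 4.54 and 4.35 in F3. ND-B14.5AL was at 3.81 and 3.72 unchallenged, 3.84 and 3.64 with G418, and 4.01 and 4.16 in F3, while ND-B14.5A was at 10.55 and 10.02 unchallenged, 10.57 and 10.27 with G418, and 10.03 and 10.26 in F3. Of these last paralogs only ND-24L had both G418 arrays above both unchallenged arrays, as had 1319 of the 5282 genes. Their changes were 0.15 and -0.02.

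Both complex III paralogs had a positive change and were highest on G418 replicate 1. UQCR-14L was at 3.73 and 3.74 unchallenged, 4.21 and 3.92 with G418, and 4.12 and 3.79 in F3, and UQCR-14 was at 11.94 and 11.82 unchallenged, 12.10 and 11.79 with G418, and 11.74 and 11.85 in F3. The G418 arrays of UQCR-14L lay above its unchallenged arrays, with a change of 0.33 ± 0.16 (SE). This was so for 1319 of the 5282 genes up to the brightest paralog's signal. UQCR-11L was at 4.15 and 3.64 unchallenged, 4.88 and 4.01 with G418, and 3.98 and 3.66 in F3. It had the largest change among the members, 0.55 ± 0.37 (SE), with an interval of -0.47 to 1.57, and its groups overlapped, as G418 replicate 2 lay below unchallenged replicate 1.

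Cytochrome c oxidase had 7 paralogs. COX4L was at 3.54 and 3.59 unchallenged, 4.40 and 3.63 with G418, and 3.61 and 3.68 in F3, so that G418 replicate 1 stood high and replicate 2 lay just above the unchallenged arrays. COX6AL was at 3.97 and 3.76 unchallenged, 4.34 and 4.03 with G418, and 4.16 and 3.94 in F3. It too had both G418 arrays above both unchallenged arrays, as had 1319 of the 5282 genes up to the brightest paralog's signal. COX6AL2 was at 3.76 and 3.77 unchallenged, 3.94 and 3.64 with G418, and 3.87 and 3.74 in F3, with overlapping groups. Their counterpart levy was at 11.63 and 11.75 unchallenged, 11.74 and 11.53 with G418, and 11.53 and 11.70 in F3. COX7AL was at 3.22 and 3.10 unchallenged, 3.76 and 3.20 with G418, and 3.46 and 3.37 in F3, and COX7AL2 was at 4.29 and 4.10 unchallenged, 4.13 and 4.21 with G418, and 4.13 and 4.27 in F3. The gene they resemble, COX7A, was at 11.41 and 11.59 unchallenged, 11.63 and 11.40 with G418, and 11.42 and 11.49 in F3. None of these 3 separated the groups. COX5BL was at 3.32 and 3.17 unchallenged, 3.48 and 3.15 with G418, and 3.51 and 3.59 in F3. COX6CL was at 3.75 and 3.08 unchallenged, 3.68 and 3.31 with G418, and 3.50 and 3.29 in F3, and its counterpart cype was at 12.18 and 12.05 unchallenged, 12.19 and 11.94 with G418, and 11.99 and 12.09 in F3. The changes of these paralogs ran from -0.03 for COX7AL2 to 0.45 for COX4L.

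Of the 4 ATP synthase paralogs, ATPsynbetaL was at 4.58 and 4.20 unchallenged, 5.13 and 4.61 with G418, and 4.54 and 4.79 in F3, with a change of 0.47 ± 0.26 (SE). ATPsynGL was at 4.08 and 3.72 unchallenged, 4.45 and 3.87 with G418, and 4.12 and 4.22 in F3. ATPsynCF6L was at 3.32 and 3.43 unchallenged, 3.39 and 3.31 with G418, and 3.19 and 3.62 in F3, and ATPsynCF6, of the peripheral stalk, was at 11.48 and 11.69 unchallenged, 11.68 and 11.48 with G418, and 11.57 and 11.66 in F3. ATPsynepsilonL was at 5.77 and 6.07 unchallenged, 5.83 and 5.55 with G418, and 5.81 and 5.86 in F3, with the lowest change of the paralogs, -0.23 ± 0.19 (SE).

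Together the paralogs had a median change of 0.25, and 14 of 18 were positive. For 6 of them both G418 arrays lay above both unchallenged arrays, and for 0 below. Of the 5282 genes of no more than the brightest paralog's signal, 1319 lay above and 582 below. Those genes had a median of 0.08 and were positive in 65.6%. The paralogs' median was 0.03 without G418 replicate 1 and 0.45 without G418 replicate 2. It was 0.39 without unchallenged replicate 1, 0.08 without unchallenged replicate 2 and 0.16 after quantile normalization. Of 18 paralogs 11 had their highest value on G418 replicate 1 and 11 their lowest on unchallenged replicate 2. Of the 5282 genes as dim 35.1% had their highest value on the former array and 2159 their lowest on the latter. Testis markers followed the same array: 18 of 23 were highest on G418 replicate 1, where they summed to 9.68 on the log2 scale against 8.78 to 9.10 elsewhere. The markers betaTub85D and Mst77F were at 3.99 and 3.82 unchallenged, 4.90 and 3.61 with G418, and 3.70 and 3.71 in F3, and at 4.67 and 3.79 unchallenged, 5.74 and 4.40 with G418, and 4.46 and 4.37 in F3. The markers fzo, twe, topi, aly and can were not highest on that array. Of the testis list fzo had the smallest p, at 4.38 and 4.70 unchallenged, 4.83 and 5.11 with G418, and 5.49 and 5.37 in F3. The part of the testis markers in the paralogs' values was not tested.

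The second comparison set F3 larvae with past exposure of the F1 generation against F3 larvae without it, 1 array each, with no replicate check and no test. Nearly all subunits were slightly higher with past exposure. Of the 71 members, 60 (84.5%) were higher, where 53.2% of all genes were. Of the 50 bright subunits 47 were higher, against 51.8% of genes as bright, with a median log2 difference of 0.10 and a largest one of 0.28. No member differed 2-fold between the F3 arrays, where 1.54% of all genes did. For size, the same 50 subunits differed between the G418 replicates by a median of -0.18, with 46 lower on replicate 2. Between the unchallenged replicates the median was 0.07, with 32 higher and 18 lower on replicate 2. Differences of opposite sign cancel in that median, so it understates the spread. The median pooled SD between replicates was 0.13 for these subunits.

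By complex the medians were 0.10 for I, 0.02 for II, 0.13 for III, 0.09 for IV and 0.13 for V. In complexes III, IV and V all members, 6, 7 and 10, were higher with past exposure. The widest difference of a subunit was that of Cyt-c1, from 9.88 to 10.15, and the narrowest of its complex was UQCR-11 at 0.03. RFeSP differed by 0.09, but its second, dimmer probe set gave -0.18. In complex I ND-B14.5A went from 10.03 to 10.26, and ND-51 differed by -0.02, at 9.76 and 9.74. SdhD went from 9.71 to 9.87, while SdhB stood at 10.30 and 10.29. The 3 subunits that were not higher were ND-51, ND-B22 and SdhB.

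In complex IV the range ran from COX4 at 0.05 to COX7B, a small membrane subunit at 12.20 and 12.01 unchallenged, 12.26 and 12.02 with G418, and 12.00 and 12.19 in F3. In complex V it ran from ATPsynB at 0.03 to ATPsynF at 0.19. On the array without past exposure 22 of the 50 bright subunits had their lowest value of the 6 arrays, all of them in complexes I to IV, where 9.45% of genes as bright did.

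Of the paralogs 10 of 18 were higher with past exposure, with a median difference of 0.05. They ranged from UQCR-14L at -0.33 and UQCR-11L at -0.32 to ATPsynbetaL at 0.26 and ATPsynCF6L at 0.43. Markers of other tissues differed between the F3 arrays too. All 10 muscle markers were higher with past exposure, and their summed signal was 12.94 without and 13.33 with it. Of 6 fat body markers 5 were higher, with a median difference of 3.47 over the 6. Their summed signal was 10.08 without and 13.63 with past exposure, and all 6 differed at least 2-fold. Salivary gland markers summed to 10.85 and 10.89. The gap between 3' and 5' control probe sets was also wider on the array with past exposure, at 0.51 against 0.12 for actin, 1.61 against 1.52 for GAPDH and 1.56 against 1.38 for eIF-4A. The part of these tissues, and of RNA quality, in the subunits' differences was not tested.

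**Figure D4:**
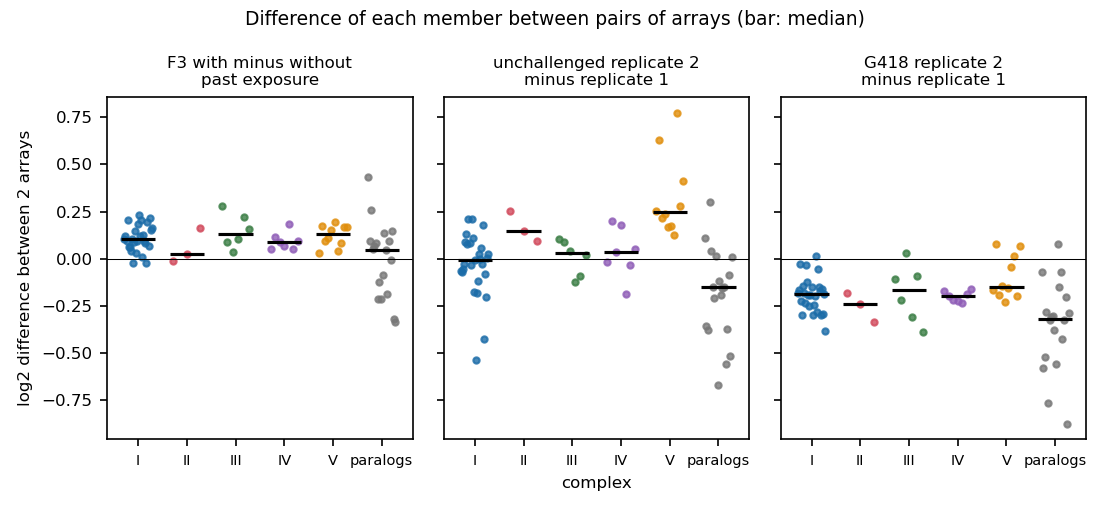
Log2 difference of each member between the F3 arrays (left), the unchallenged replicates (middle) and the G418 replicates (right), with medians as bars, by complex (I to V) and for paralogs. In F3, 50 of 53 subunits lie above 0; between unchallenged replicates the 10 ATP synthase subunits stand out above 0, and between G418 replicates most members lie below 0.

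Other genes of mitochondrial energy metabolism were counted in the same fit, and none passed it. Subunits that carry other names numbered 5. Among them blw, the catalytic-hexamer partner of ATPsynbeta, was at 11.65 and 11.60 unchallenged, 11.61 and 11.68 with G418, and 11.73 and 11.96 in F3, and ox, of complex III, was at 10.49 and 10.56 unchallenged, 10.62 and 10.46 with G418, and 10.46 and 10.61 in F3. Of the 5, 2 had a positive G418 change, with a median of -0.05, and sun had the smallest p, with -0.39 ± 0.14 (SE). Assembly factors had 7 of 13 positive changes and a median of 0.01, with Cox11, a copper chaperone of complex IV, at 0.24 ± 0.13 (SE).

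Carriers and ubiquinone synthesis genes had 13 of 18 positive changes and a median of 0.11. Coq7, an enzyme of ubiquinone synthesis, had 0.41 ± 0.14 (SE), at 8.21 and 8.11 unchallenged, 8.60 and 8.53 with G418, and 8.22 and 8.27 in F3. The adenine nucleotide carrier sesB and the outer membrane channel porin had -0.35 ± 0.17 (SE) and -0.31 ± 0.20 (SE), with both G418 arrays below both unchallenged arrays, as for 20.1% of all genes. Citric acid cycle genes had 6 of 11 positive changes (median 0.03), with Fum2 at 0.31 ± 0.13 (SE). Glycolytic genes had 8 of 11 (median 0.08), with Hex-C at 0.33 ± 0.14 (SE). The probe sets of Fum2 and Hex-C were dim, with means of 4.50 and 4.41, below the median of all probe sets. Genes of mitochondrial biogenesis and mitochondrial DNA upkeep had 5 of 16 positive (median -0.14), with the fission gene Drp1 at -0.45 ± 0.16 (SE). Mitochondrial chaperones and proteases had 4 of 10 positive (median -0.08), with the protease Lon at -0.63 ± 0.29 (SE). The adjusted p was 0.788 in limma for Coq7, Drp1, sesB, porin, Cox11, sun and Lon alike.

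In F3, past exposure went with higher values in 11 of 11 glycolytic genes (median 0.23) and 10 of 11 citric acid cycle genes (0.12). Also higher were 10 of 13 assembly factors (0.15) and 12 of 18 carrier and ubiquinone genes (0.06). So were 5 of 5 subunits under other names (0.16), 8 of 10 chaperones and proteases (0.12) and 11 of 16 biogenesis and mitochondrial DNA genes (0.06). The largest of these differences was that of Hex-A, a hexokinase, at 0.77, from 7.25 to 8.02. Its G418 replicates, at 6.72 and 7.97, lay farther apart than that. All genes together had a median of 0.02, and 53.2% of them were higher.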

How the data were processed

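RNA from larval proventriculus was hybridised to 6 Affymetrix Drosophila 2.0 arrays after 3' IVT Express labelling, per the labels' protocols. The deposited values are log2 signals, which Expression Console computed by RMA, per the labels. The sources used here give no software versions. No further normalization was applied. Of 18952 probe sets 183 controls were left out. Of the 18769 tested, 13647 carried 1 gene symbol, 402 several and 4720 none; no gene was named from a probe set with several. All 71 member symbols matched the gene table (Release 6 plus ISO1 MT), used for names only.

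G418 and unchallenged arrays, 2 against 2, were compared with limma 3.58.1 in R 4.3.3, with Benjamini-Hochberg adjustment over all 18769 probe sets and a threshold of 0.05. The fit was tested on simulated data. F3 arrays were not tested. Precision is limited by the number of arrays. The members and lists were chosen with earlier results of these data known. Genes given on every array were the 3 of smallest p per complex, the extremes of the F3 difference, the succinate dehydrogenase genes, and each paralog with its counterpart. In the lists of mitochondrial energy metabolism genes, the gene of smallest p was named. In the lists of tissue markers it was named only for testis. Other genes named were picked after their values were seen. Alternatives were the normalization, the variance prior, the threshold, a filter on dim probe sets, the mean of a gene's probe sets, the replicate number as a block and leaving out each array.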

Additional observations from a re-analysis of the deposited data

How the results depend on the processing

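Members called stayed at 0 under every alternative run, of 71 tested except under the filter at the median signal, which left 53. Over all probe sets, leaving out 1 array gave 0 to 251 calls, with 251 without unchallenged replicate 1 and 4 without unchallenged replicate 2, a trended and robust variance prior gave 1 and a threshold of 0.1 gave 1. The replicate number as a block gave 0 calls; it raised the probe sets at an unadjusted p under 0.05 from 664 to 2187, with 3 members among them. The labels do not pair the arrays, and same-numbered arrays deviated together with r = 0.32 over all probe sets and 0.51 over the 71 members. The paralogs' median log2 change ran from 0.028 to 0.45 when 1 array was left out; a filter at the median signal kept 2 paralogs. That of all members ran from -0.01 to 0.17, of complex I from 0.0087 to 0.18, of complex II from 0.17 to 0.38, of complex III from -0.01 to 0.19, of complex IV from -0.08 to 0.12 and of complex V from -0.16 to 0.10. Of 33 genes followed singly, 20 kept their sign in every setting. Leaving out 1 array moved the log2 change of ATPsynB from -0.057 to 0.20, ATPsynC from -0.47 to 0.16, ATPsynCF6L from -0.077 to 0.033, ATPsynGL from -0.028 to 0.55, COX4 from -0.16 to 0.016, COX5A from -0.030 to 0.17, COX5B from -0.16 to 0.062, COX5BL from -0.096 to 0.23, COX6AL2 from -0.13 to 0.18, COX6CL from -0.25 to 0.41, COX7AL2 from -0.12 to 0.068, ND-51L1 from -0.047 to 0.51 and ND-B14.5AL from -0.12 to 0.081; COX6AL2 also turned to -0.059 after quantile normalization. The counts of bright subunits higher in F3, of those highest on G418 replicate 1 and of ATP synthase subunits higher on unchallenged replicate 2 were chosen after seeing the data. The first was 46 to 48 of 50, the last 10 of 10, and that on G418 replicate 1 was 22 after median centring and 33 to 38 otherwise. With 2 arrays a group, or 1 in F3, differences of the size seen between replicates were not detectable.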
